A study of Mus musculus with 22 samples.

Results

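Basal and stress keratins were described here as a set of 7 genes taken by symbol: Krt5, Krt14, Krt15, Krt17, Krt6a, Krt6b and Krt16. They are 7 of the 23993 gene symbols in the larger deposited table and 7 of the 23490 in the smaller one, where Krt6a has no entry of its own and is listed jointly with Krt82 and Krt85. The rule takes them by symbol, and earlier results of these data were known when it was made. All 7 stood at their highest in mammary cells grown by conditional reprogramming (CRC), where they took 2.02% to 2.91% of the summed expression. All 7 were called lower in the CRC allografts than in the CRC cultures, as were 18.4% of 12325 genes tested. Krt15, Krt6b and Krt6a would not have passed the filter on low values without the CRC cultures, so their fall followed from that filter.

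Keratins are the intermediate filament proteins of epithelial cells, and each filament is built from pairs of a type I and a type II keratin. Krt5 (type II) and Krt14 (type I) form the filament of basal cells of stratified epithelia and of the basal, myoepithelial layer of the mammary gland, and Krt15 is a further type I keratin of basal keratinocytes. Krt6a and Krt6b (type II) with Krt16 and Krt17 (type I) are known as stress keratins, since epidermal keratinocytes make them during wounding, hyperproliferation and growth in culture. The mammary luminal layer is known for the simple epithelial keratins Krt8, Krt18, Krt19 and Krt7.

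The series compared conditional reprogramming (CRC) with a mammary-optimised culture (EpiC) by poly(A) RNA sequencing of 22 mouse libraries. Conditional reprogramming usually means growth of epithelial cells with irradiated fibroblast feeders, and the labels state neither medium in detail. All libraries came from nulliparous females, and the cells were C57Bl/6 with 1 mutant Trp53 allele and an MMTV-Cre transgene, whose promoter is active mainly in mammary epithelium. The genotypes were CYP19A1 (Tet-op-CYP19A1 with MMTV-rtTA and no conditional Brca1 allele), Brca1het (1 floxed Brca1 allele, fl11/WT) and Brca1hom (2 floxed alleles, fl11/fl11). The larger table held 3 CRC and 3 EpiC cultures, 1 of each genotype, where number 1 is CYP19A1, 2 is Brca1het and 3 is Brca1hom. It also held 7 CRC allografts (6C of CYP19A1, 10B, 10C and 11C of Brca1het, and 1, 2 and 12 of Brca1hom) and 3 EpiC allografts (7B of CYP19A1, 4C and 5A of Brca1het). The allografts grew in mammary glands of NU(NCr)-Foxn1nu hosts, immunodeficient nude mice that lack a normal thymus, so an allograft library can hold RNA of host cells. The smaller table held 2 Brca1het primary cancers, each with 1 CRC and 1 EpiC culture. The labels give no ages and do not state if replicate libraries are of different animals or culture dishes, and p-values therefore cover only the scatter among these libraries, part of which may be technical.

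The unit is FPKM, which divides fragments by transcript length and by the mapped total, and its sum ran from 466400 to 825200 per library in the larger table and from 607500 to 1616000 in the smaller one. The CRC culture of cancer 2 held that highest sum, against 607500 to 710500 in the other 5 libraries of its table. EpiC culture 3 stood apart from the other cultures in its epithelial genes: summed luminal markers (Krt8, Krt18, Krt19, Epcam, Cdh1, Elf5 and Gata3) came to 13.4 FPKM there and to 949 to 2320 FPKM in the CRC and 1404 and 1689 FPKM in the other EpiC cultures. The counts and the main values that rest on these libraries are given again without them; without EpiC culture 3, CRC culture 3 has no partner of its genotype in the comparison of culture media.

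The keratin genes sit in a cluster on each of 2 chromosomes, and 50 protein-coding keratins of the larger table were placed by the GENCODE annotation of GRCm38, from which the order of genes was taken because the files use build mm9. Krt6b, Krt6a and Krt5 are neighbours among the 23 placed on chromosome 15, and Krt14, Krt16 and Krt17 are neighbours among the 27 on chromosome 11, with Krt15 separated from them by Krt19 and Krt9. Of the 50 keratins, 30 stayed below 1 FPKM in every library of the larger table and 13 reached 10 FPKM in at least 1. Those 13 were the 7 described here with Krt7, Krt8, Krt18, Krt19, Krt79 and Krt80.

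**Figure D1:**
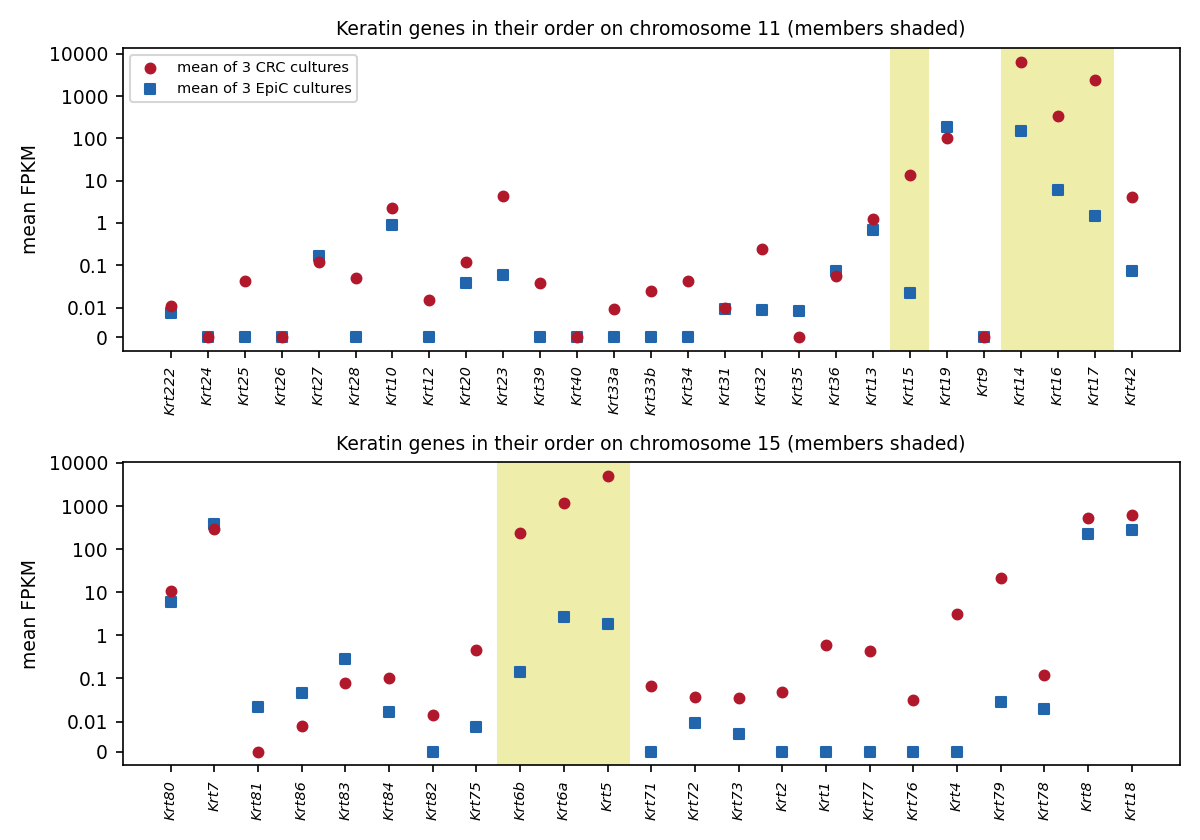
Mean FPKM (log axis, 0 drawn at the lowest tick) of each keratin gene in the 3 CRC cultures (circles) and the 3 EpiC cultures (squares), in the order of the genes on chromosomes 11 and 15, with the 7 described genes shaded. Krt5 stands at 4985 FPKM in the CRC and 1.85 FPKM in the EpiC cultures, while its neighbour Krt71 is near 0 in both.

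The sequences bear on how far close pairs of these genes can be told apart by reads. The coding sequences of Krt6a and Krt6b in GENCODE are identical at 1622 of 1659 aligned bases (97.8%), with an identical run of up to 280 bases, and 60.3% of the 50-base words of Krt6b also occur in Krt6a. The stretch from coding base 787 to 876 is shown because it holds 12 of their differences. Capitals mark the bases that differ.

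Krt6a: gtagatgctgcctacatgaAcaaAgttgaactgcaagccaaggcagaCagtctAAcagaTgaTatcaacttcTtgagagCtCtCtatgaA
Krt6b: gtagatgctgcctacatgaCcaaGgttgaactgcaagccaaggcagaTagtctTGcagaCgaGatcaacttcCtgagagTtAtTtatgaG

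Among the type I members, Krt14 and Krt16 are 86.2% identical over their coding bases, with an identical run of up to 134 bases, and Krt14 and Krt17 are 82.8% identical. Krt5 and Krt6a are 80.5% identical. The split of fragments between Krt6a and Krt6b is therefore uncertain, as is a low level of Krt16 in a library with much Krt14. How the authors' counting treated fragments that match several genes is not given in the sources used here.

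The promoter of Krt5, the member with the largest difference between the culture media, is shown as the 250 bases before its RefSeq start (chr15:101712906-101713155, GRCm38.p6, minus strand, read 5′ to 3′). Capitals mark a p53 family half-site, which starts 95 bases before the start, and the TATA-like ATAAAA, which starts 29 bases before it.

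Krt5: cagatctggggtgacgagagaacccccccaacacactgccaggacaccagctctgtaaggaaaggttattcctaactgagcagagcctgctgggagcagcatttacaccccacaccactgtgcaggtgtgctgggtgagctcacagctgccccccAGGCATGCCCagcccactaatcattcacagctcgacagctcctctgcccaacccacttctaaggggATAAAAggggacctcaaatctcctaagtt

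The motifs were chosen after the sequence was read and were searched on both strands. The pattern of the half-site, which allows several bases at some positions, matches here on both strands and occurs in 1.63% of 32851 RefSeq promoter windows of that length, and ATAAAA occurs in 17.0% of them. An E-box CACCTG was found once, 128 bases before the start on the other strand, and occurs in 17.2% of the windows. The AP-1 motif TGANTCA (in 6.75% of windows) and the AP-2 motif GCCNNNGGC (in 13.7%) had no match in this window. A match of letters is not a site of binding, and no binding was measured.

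In culture, each of the 7 keratins was higher in all 3 CRC libraries than in any EpiC library. A gene was called where limma, fitted on log2(FPKM + 1) over all genes that averaged 1 FPKM or more, gave a Benjamini-Hochberg adjusted p under 0.05. All 7 were called higher in CRC, where 11.4% of the 11837 genes tested were called higher, and all 7 were called without EpiC culture 3 too. The fit has only 2 residual degrees of freedom, and fewer when a library is left out. Without EpiC culture 3 the difference rests on cultures 1 and 2 of each medium, since genotype is in the model. The median log2 difference was 7.64 over the 7 and 0.04 over all genes tested. Krt15 and Krt6b passed the filter through the CRC cultures alone, here and in the comparisons with allografts, so a difference in these 2 followed from the filter. In the comparisons with allografts, Krt6a too would not have passed without the CRC cultures. Its means were 2.64 FPKM in the EpiC cultures, 0.274 in the CRC allografts and 0.758 in the EpiC allografts. Its fall from CRC cultures to CRC allografts thus followed from the filter as well.

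Among the basal keratins, Krt5 stood at 5050, 5457 and 4450 FPKM in CRC cultures 1, 2 and 3 and at 2.32, 2.22 and 1.00 FPKM in EpiC cultures 1, 2 and 3. Among these cultures, which leave out those of the cancers, the values formed a high and a low part with nothing between. Its log2 difference was 10.80 (SE 0.18, limma adjusted p = 0.00109). Krt5 ranked 3, 3 and 4 among all genes in CRC cultures 1, 2 and 3, and 10186, 10172 and 11177 in the EpiC cultures.

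Krt14, the type I partner of Krt5, stood at 3653, 7582 and 8418 FPKM in the CRC cultures and at 333, 124 and 1.73 FPKM in the EpiC cultures. EpiC culture 1 and 2 thus kept a level of Krt14 that they did not have of Krt5. The log2 difference was 6.99 (SE 1.62, limma adjusted p = 0.0452), with the widest error of the 7. Without EpiC culture 3 it was 4.69 (adjusted p = 0.0141). The call was lost without CRC culture 2 (adjusted p = 0.155), CRC culture 1 (0.0729), EpiC culture 2 (0.150) or EpiC culture 1 (0.0695), with a pseudocount of 0.1 FPKM (0.0527), and with no filter on low values (0.0956).

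Krt15 was the least abundant member, at 8.29, 28.4 and 3.34 FPKM in the CRC cultures and 0.025, 0.040 and listed at 0 in EpiC cultures 1, 2 and 3. The log2 difference was 3.37 (SE 0.56, limma adjusted p = 0.024). This call too was lost without CRC culture 2 (adjusted p = 0.0954), CRC culture 1 (0.0939), EpiC culture 2 (0.0797) or EpiC culture 1 (0.0889), and with no filter (0.0578).

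Among the stress keratins, Krt17 was the most abundant, at 2478, 2148 and 2404 FPKM in the CRC cultures and 1.93, 1.94 and 0.460 FPKM in the EpiC cultures (log2 difference 9.97, SE 0.28, limma adjusted p = 0.00171). Its 3 CRC values lay within a narrow band and its ranks among all genes there were 24 to 31. Krt6a stood at 769, 1170 and 1542 FPKM in the CRC cultures and 1.15, 6.52 and 0.242 FPKM in the EpiC cultures (log2 difference 8.68, SE 0.60, adjusted p = 0.00552). EpiC culture 2 held the highest EpiC value of Krt6a and also of Krt16.

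Krt16, the usual type I partner of the Krt6 proteins, stood at 371, 470 and 192 FPKM in the CRC cultures and at 4.94, 12.8 and listed at 0 in EpiC cultures 1, 2 and 3 (log2 difference 6.22, SE 0.51, limma adjusted p = 0.00733). Krt6b stood at 170, 182 and 371 FPKM in the CRC cultures and at 0.169, 0.225 and 0.0272 FPKM in the EpiC cultures (log2 difference 7.64, SE 0.32, adjusted p = 0.00229). CRC culture 3, of Brca1hom, had the highest Krt14, Krt6a and Krt6b and the lowest Krt5, Krt15 and Krt16 of the 3 CRC cultures, and with 1 library of each genotype this order has no replicate check. Krt5, Krt17, Krt6a, Krt6b and Krt16 kept their call whichever culture was left out.

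**Figure D2:**
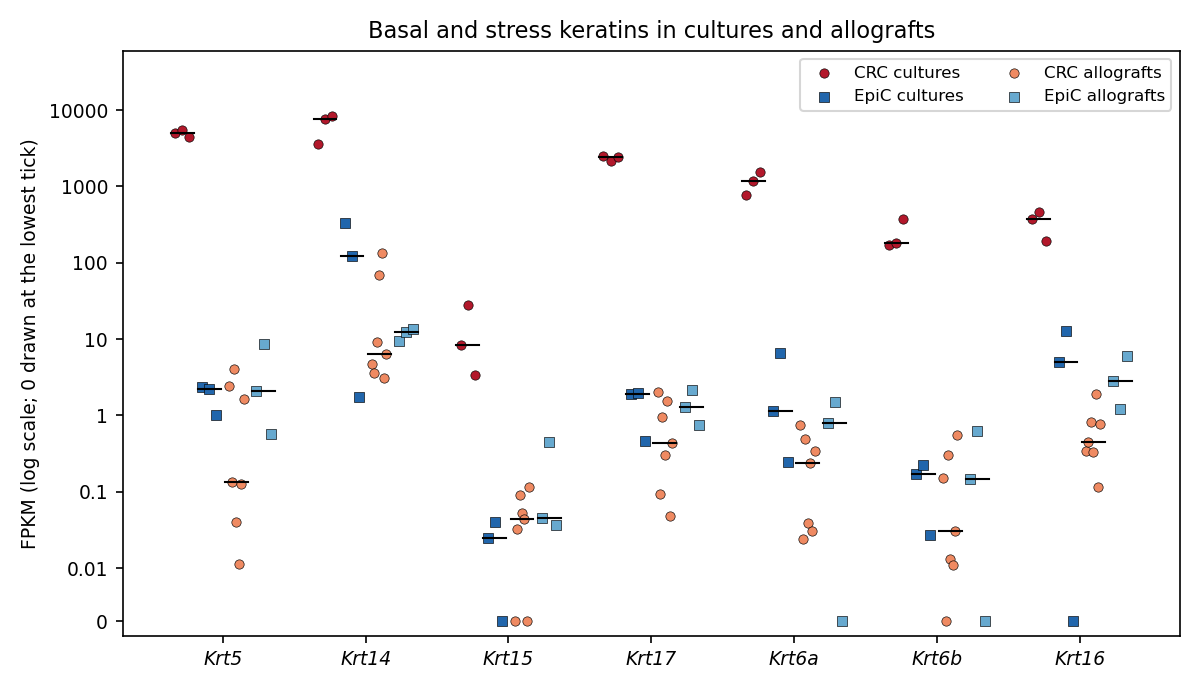
FPKM (log axis, 0 drawn at the lowest tick) of the 7 keratins in 3 CRC cultures, 3 EpiC cultures, 7 CRC allografts and 3 EpiC allografts; each point is a library and each bar the median of its group. The CRC cultures lie above every other library for each gene, and outside them Krt14 runs from 1.73 to 333 FPKM and Krt5 from 0.0113 to 8.68 FPKM.

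By mean FPKM in the CRC cultures the order was Krt14 (6551 ± 2545, SD, n = 3), Krt5 (4985 ± 506), Krt17 (2344 ± 174), Krt6a (1160 ± 387), Krt16 (344 ± 141), Krt6b (241 ± 113) and Krt15 (13.3 ± 13.3). The ranges of Krt14 and Krt5 overlapped, as did those of Krt16 and Krt6b, while the other neighbours in that order did not overlap. In the EpiC cultures Krt14 led with 153 ± 167 FPKM, followed by Krt16 with 5.93 ± 6.48, and Krt6b and Krt15 were the lowest. The lowest CRC culture stood above the highest of the other 13 libraries of the table by a factor of 986 for Krt17, 513 for Krt5, 273 for Krt6b and 118 for Krt6a. The factor was 14.96 for Krt16, 11.0 for Krt14 and 7.38 for Krt15.

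The balance of the partner types differed between libraries. Summed FPKM of the type I members over the type II members was 1.09, 1.50 and 1.73 in CRC cultures 1, 2 and 3. It was 93.2, 15.5 and 1.73 in EpiC cultures 1, 2 and 3, with Krt14 alone taking 96.9% and 83.9% of the members' sum in EpiC cultures 1 and 2. Where the simple keratins were added, the type II over type I ratio was 0.949 in EpiC culture 1 and 0.973 in EpiC culture 2, against 0.922, 0.700 and 0.631 in the CRC cultures. In EpiC culture 3, where Krt8 stood at 0.275 FPKM, this ratio was 0.129. These ratios are of RNA and were not tested.

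None of Krt8, Krt18, Krt19 and Krt7 was called between the culture media, in which Krt8 stood at 536 ± 276 FPKM in the CRC cultures and at 222 ± 230 FPKM in the EpiC cultures (SD, n = 3 each; log2 difference 3.26, limma adjusted p = 0.261). The difference of Krt8 without EpiC culture 3 was 0.38 (adjusted p = 0.353), and still none of the 4 was called. Krt19 stood at 100.3 ± 79.6 and 186 ± 153 FPKM (log2 difference −0.22, adjusted p = 0.852). Of 5 suprabasal and other stratified keratins tested, Krt23 was called higher in CRC (log2 difference 2.29, adjusted p = 0.0144), and Krt79 (3.42, adjusted p = 0.084), Krt4, Krt10 and Krt80 were not. Krt23 passed the filter through the CRC cultures alone, so its difference followed from the filter.

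Genes of the structures to which these keratins attach were counted in the same fit. Of 12 desmosome genes, whose products anchor keratin filaments between cells, 9 were called higher in CRC cultures and 0 lower, with a median log2 difference of 3.77. Dsg3, a desmosomal cadherin of basal keratinocytes, stood at 228 ± 43.4 FPKM in the CRC cultures and at 0.731 ± 0.573 FPKM in the EpiC cultures (SD, n = 3 each; log2 difference 7.09, limma adjusted p = 0.00279). Perp, a desmosomal membrane protein, differed by 6.46 (adjusted p = 0.0392) and Dsc3, another desmosomal cadherin, by 6.20 (0.00203) on the log2 scale. Dsg3 and Dsc3 passed the filter through the CRC cultures alone, so their difference followed from the filter. The counts include such genes. Without EpiC culture 3, 10 of the 12 were called higher and 0 lower (median 2.97), with Perp at 4.41 (adjusted p = 0.00295).

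Of 11 genes of hemidesmosomes and basement membrane anchorage, 6 were called higher and 0 lower (median 3.32). Col17a1, the hemidesmosomal collagen, stood at 167 ± 57.5 FPKM in the CRC cultures and at 0.573 ± 0.0533 FPKM in the EpiC cultures (log2 difference 6.69, limma adjusted p = 0.00171). It passed the filter through the CRC cultures alone, so its difference followed from the filter. The laminin gene Lama3 (3.79, adjusted p = 0.0194) was called, and Lamb3 (3.32, 0.0625) and the integrin gene Itgb4 (3.69, 0.0673) were not. Without EpiC culture 3, 8 were called higher and 0 lower (median 2.18), and Lamb3 (1.99, adjusted p = 0.0085) and Itgb4 (2.18, 0.018) were among them.

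Of 14 transcription factors of basal and stratified epithelium, 10 were called higher and 1 lower, with a median of 2.42. Trp63 encodes p63, the p53 family factor of basal epithelial cells, and stood at 50.1 ± 24.0 FPKM in the CRC cultures and at 7.68 ± 6.17 FPKM in the EpiC cultures (log2 difference 2.77, limma adjusted p = 0.0194). Grhl3 (3.95, adjusted p = 0.00305) and Sox15 (3.67, 0.0105) were among those called higher, and the AP-1 gene Fosl1 was the 1 called lower (−1.92, 0.0245). Of 14 activated keratinocyte genes tested, 6 were called higher, among them the cornified envelope gene Sprr1b (6.67, 0.00379), Sfn (5.44, 0.0296) and S100a9 (4.84, 0.0421), and Lcn2 was called lower (−2.08, 0.0155). Without EpiC culture 3, 9 transcription factors were called higher and 1 lower. Of the activated keratinocyte genes, 4 were then called higher and 3 lower, and S100a9 was no longer called (4.88, limma adjusted p = 0.0633). Of the genes named, Grhl3, Sox15 and Sprr1b passed the filter through the CRC cultures alone, so their difference followed from the filter.

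Markers of other cells moved with the medium as well. Of 8 fibroblast markers, 7 were called lower in CRC cultures, where 11.7% of 11837 genes were called lower. Part of these markers passed the filter through the EpiC cultures alone, so their direction followed from the filter. The summed level of the 8 was 62.5 to 221 FPKM in CRC and 3909 to 7176 FPKM in EpiC cultures. Summed epidermal markers were 5.96 to 17.5 FPKM in CRC and 0.681 to 1.26 FPKM in EpiC cultures; Flg2 was at most 0.1 FPKM in every CRC culture, Lor, Krt1, Krt2, Ivl and Flg2 in every EpiC culture. Among the contractile myoepithelial genes, Acta2 (0.75, limma adjusted p = 0.432), Tagln (−1.67, 0.219) and Cnn1 (−1.10, 0.0976) were not called between the media, but Tagln was lower in CRC without EpiC culture 3 (−2.90, 0.0169). The part of cell composition in the keratin differences was not tested, and in such bulk samples fewer cells of a type and less RNA per cell cannot be told apart.

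The fall from CRC cultures to CRC allografts took all 7 keratins. All 7 were called lower in the allografts in a fit over the 16 libraries, where 18.4% of 12325 genes were called lower. The median log2 difference was −8.79 over the 7 and 0.04 over all genes tested. All 7 were called without EpiC culture 3 too, with Krt5 at −11.36 and Krt14 at −8.97. The comparison shares the CRC cultures with the one above, so the 2 sets of values are not independent.

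Krt5 had a lowest value of 0.0113 FPKM, a median of 0.135 and a highest of 4.02 in the 7 CRC allografts. Allografts 10C (4.02), 6C (2.40) and 12 (1.63) held the upper values, and the other 4 were at or under 0.135 FPKM. The log2 difference from CRC cultures was −11.36 (SE 0.57, limma adjusted p = 4.35e-09). Krt17 ran from 0.0478 to 2.02 FPKM with a median of 0.441 (−10.39, SE 0.34, adjusted p = 1.45e-10).

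Krt6a ran from 0.0238 to 0.746 FPKM in the CRC allografts with a median of 0.241 (log2 difference −9.81, SE 0.45, limma adjusted p = 1.7e-09). Krt6b ran from a library listed at 0 to 0.559 FPKM (−7.67, SE 0.26, adjusted p = 1.46e-10), and Krt16 from 0.115 to 1.89 FPKM with a median of 0.446 (−7.61, SE 0.58, adjusted p = 2.57e-07). Krt15 was at most 0.116 FPKM (−3.35, SE 0.37, adjusted p = 9.98e-06). None of these ranges reached the lowest CRC culture.

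Krt14 had the highest level of the 7 keratins in every CRC allograft. It stood at 4.77 FPKM in 6C, 3.56 in 10B, 9.16 in 10C, 69.6 in 11C, 132 in 1, 3.05 in 2 and 6.34 in 12. Allografts 1 and 11C lay far above the other 5, and they held the lowest Krt5 of all, at 0.0113 and 0.0403 FPKM. The log2 difference from CRC cultures was −8.79 (SE 1.33, limma adjusted p = 0.000142). Krt14 exceeded Krt5 by a factor of 11690 in allograft 1 and of 1730 in 11C, against 1.98 in 6C and 2.28 in 10C.

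The EpiC series moved otherwise. None of the 7 was called between EpiC allografts and EpiC cultures, where 14.2% of 12325 genes were called in either direction. Krt5 stood at 2.06, 8.68 and 0.565 FPKM in EpiC allografts 7B, 4C and 5A, a range that spans that of the EpiC cultures (log2 difference 0.22, SE 0.68, limma adjusted p = 0.874). Krt14 stood at 9.41, 12.5 and 13.5 FPKM, below EpiC cultures 1 and 2 and above EpiC culture 3 (−2.29, SE 1.60, adjusted p = 0.376). Without EpiC culture 3 this difference was −4.09 (adjusted p = 0.0562). In a fit of the EpiC libraries alone Krt14 was called lower (−3.95, adjusted p = 0.0143), with EpiC culture 3 having no allograft of its genotype.

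The stress keratins of the EpiC allografts overlapped the EpiC cultures in range. Krt17 stood at 1.28, 2.18 and 0.749 FPKM in 7B, 4C and 5A (log2 difference −0.04, limma adjusted p 0.652 to 0.998 over the alternatives), Krt16 at 2.82, 1.22 and 5.94 FPKM (−0.45), and Krt6a at 0.797, 1.48 and listed at 0 (−0.85, SE 0.54, adjusted p = 0.332). Krt6b stood at 0.145, 0.622 and listed at 0, and Krt15 at 0.0449, 0.452 and 0.0369 FPKM. EpiC allograft 4C held the highest Krt5, Krt17, Krt6a, Krt6b and Krt15 of all 10 allografts.

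The difference between the media in this change was tested as an interaction. It was called for 6 of the 7, all lower, where 5.87% of 12325 genes were called lower. Krt15, Krt6b and Krt6a would not have passed the filter without the CRC cultures, so their lower value followed from the filter. The interaction also shares the CRC cultures with the comparisons above and is not independent of them. The values on the log2 scale were −11.58 for Krt5 (SE 0.89, limma adjusted p = 2.06e-06), −10.35 for Krt17 (4.67e-08), −8.97 for Krt6a (2.51e-06), −7.85 for Krt6b (4.67e-08), −7.17 for Krt16 (0.000182) and −3.35 for Krt15 (0.00208). Krt14 missed the threshold at −6.51 (SE 2.08, adjusted p = 0.0575), and it passed without CRC allograft 1 (adjusted p = 0.016), without EpiC culture 1 (0.021) or with no genotype in the model (0.027). Without EpiC culture 3 the same number, 6, were called, and Krt14 was at −4.88 (adjusted p = 0.0777).

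**Figure D3:**
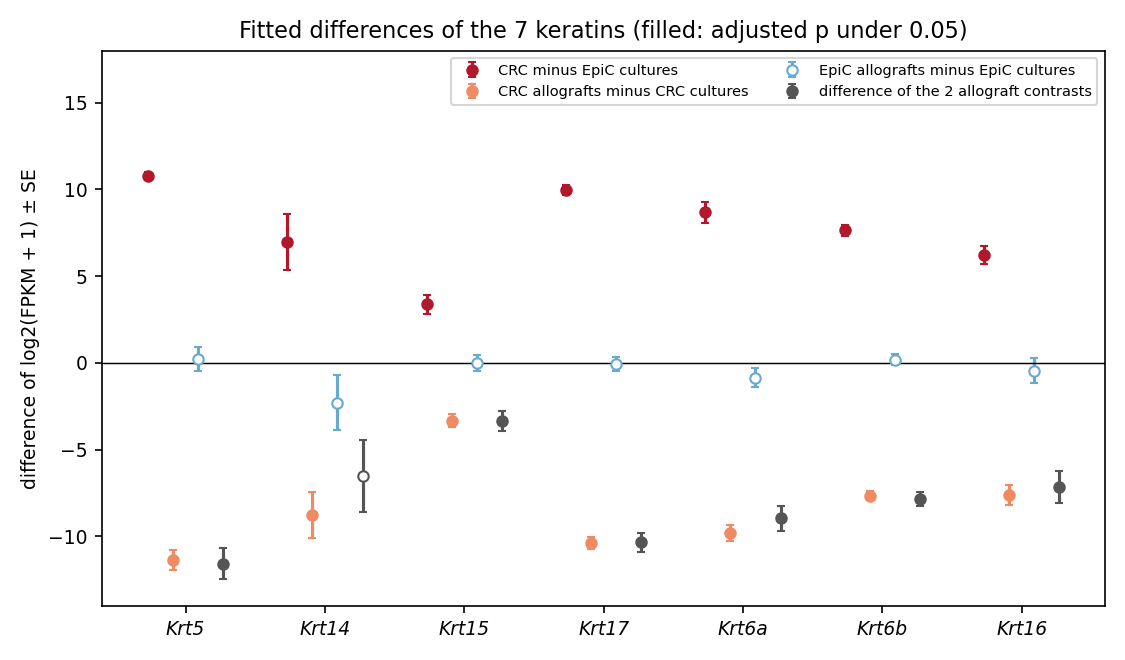
Fitted differences of log2(FPKM + 1) with their SE for the 7 keratins: CRC minus EpiC cultures, CRC allografts minus CRC cultures, EpiC allografts minus EpiC cultures, and the difference between those allograft contrasts. Filled points passed an adjusted p of 0.05. The EpiC allograft contrast runs from −2.29 for Krt14 to 0.22 for Krt5, with Krt6a at −0.85, and has no filled point.

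Desmosome genes, and part of the hemidesmosome and anchorage genes, fell in the CRC allografts. All 12 desmosome genes tested were called lower than in CRC cultures (median log2 difference −5.18), led by Dsg3 (−7.59, limma adjusted p = 1.5e-09), Perp (−7.55, 7.09e-05) and the desmoplakin gene Dsp (−7.09, 1.69e-06). Part of the 12, Dsg3 among them, passed the filter through the CRC cultures alone, so their fall followed from the filter. Of 11 hemidesmosome and anchorage genes, 7 were called lower, led by Col17a1 (−6.94, 1.7e-10), and Plec, Cd151, Itga3 and Col7a1 were not called. The counts were 12 of 12 and 8 of 11 without EpiC culture 3, Itga3 being called too (−2.39, 0.00222). Of 14 transcription factors, 11 were called lower, with Trp63 at −5.26 (2.11e-07), and Fosl1 was called higher (2.78, 0.00201). Trp63 stood at 0.171 ± 0.147 FPKM in the CRC allografts (n = 7) and at 0.379 ± 0.510 FPKM in the EpiC allografts (n = 3).

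Among the simple keratins, Krt7 (−5.59, limma adjusted p = 0.0112) and Krt19 (−4.48, 0.000563) were called lower in CRC allografts than in CRC cultures, while Krt8 (−1.67, 0.347) and Krt18 (−2.92, 0.0771) were not. All 4 were called lower when EpiC culture 3 was left out, Krt8 at −1.91 (adjusted p = 0.0188) and Krt18 at −3.16 (7e-05). Krt8 stood at 218 ± 104 FPKM in CRC allografts (SD, n = 7), where Krt5 averaged 1.19 ± 1.56. Of 15 activated keratinocyte genes tested, 8 were called lower, among them Sprr1b (−6.61, 2.16e-09), and Il1b (4.66, 2.41e-06) and Plaur (1.80, 0.00842) were called higher. Sprr1b passed the filter through the CRC cultures alone and Il1b through the allografts alone, so their directions followed from the filter. Il1b was at most 0.109 FPKM in the CRC and 0.349 FPKM in the EpiC cultures, and 15.8 to 46.4 FPKM in the CRC allografts. These can hold RNA of host cells, and which cells held Il1b was not tested.

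Markers of other cells moved with the change from culture to allograft. All 6 macrophage, all 5 endothelial and all 8 fibroblast markers tested were called higher in CRC allografts than in CRC cultures, where 21.2% of 12325 genes were called higher. The endothelial markers, most macrophage markers and part of the fibroblast markers averaged under 1 FPKM in the CRC cultures. They passed the filter through other libraries and had no room to fall, so their direction followed from the filter. Summed macrophage markers were 3102 to 10520 FPKM in CRC and 2777 to 11120 FPKM in EpiC allografts, against 7.18 to 55.0 FPKM in the 6 cultures. The fibroblast markers were already at 3909 to 7176 FPKM in the EpiC cultures, and from EpiC cultures to EpiC allografts (952 to 4062 FPKM) 0 of the 8 were called higher and 2 lower. Summed endothelial markers were 43.1 to 134 FPKM in CRC and 43.3 to 153 FPKM in EpiC allografts. Summed luminal markers were 42.5 to 500.1 FPKM in CRC allografts, lower than in CRC cultures. The part of such cells in the fall of the keratins was not tested. Epidermal markers summed to at most 5.51 FPKM in the allografts, and Flg2, Krt2 and Ivl were at most 0.1 FPKM in every one.

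Between the media, 3 keratins could be tested in the allografts, since only Krt5, Krt14 and Krt16 averaged 1 FPKM or more there. Krt16 did so through the EpiC allografts alone, so that its difference followed from the filter. None of these 3 was called, where 0.00833% of 11999 genes were called in either direction. The differences of CRC minus EpiC allografts were −0.73 for Krt5 (SE 0.74, limma adjusted p = 0.801), −0.19 for Krt14 (SE 1.19, 0.975) and −1.41 for Krt16 (SE 0.44, 0.427). Krt16 was at 0.676 ± 0.593 FPKM in the CRC allografts (n = 7) and at 3.33 ± 2.40 FPKM in the EpiC allografts (n = 3), with overlapping ranges. With no filter none of the 7 was called either.

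Genotype was compared within the CRC allografts. Krt14 was the 1 member tested, and the difference of Brca1hom minus Brca1het was 0.09 (SE 1.46, limma adjusted p = 0.987), where 0.0% of 11928 genes were called and 1246 had an unadjusted p under 0.05. Krt14 was 3.56, 9.16 and 69.6 FPKM in the Brca1het allografts 10B, 10C and 11C and 132, 3.05 and 6.34 FPKM in the Brca1hom allografts 1, 2 and 12. Each genotype thus held 1 allograft of high and 2 of low Krt14.

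Across the 10 allografts, Krt6a and Krt6b correlated with Krt5 by the Pearson coefficient, while their Spearman coefficients did not pass after adjustment. Both genes were low there, at most 1.48 FPKM for Krt6a and 0.622 FPKM for Krt6b. On log2(FPKM + 1) the correlation of Krt6a with Krt5 was r = 0.901 (permutation p = 0.00074, adjusted over 6 relations 0.00444) and Spearman coefficient = 0.709 (permutation p = 0.0263, adjusted 0.0789). Without CRC allograft 10C and EpiC allograft 4C, the farthest from the median of Krt5, r was 0.858, and within the 7 CRC allografts it was 0.854. For Krt6b r was 0.835 (permutation p = 0.00284, adjusted 0.00852), Spearman coefficient 0.742 (permutation p = 0.0169, adjusted 0.0789), r without those 2 allografts 0.667 and within CRC 0.748. The Spearman coefficients within the 7 CRC allografts were 0.607 for Krt6a and 0.679 for Krt6b.

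Krt17 (r = 0.663, permutation p = 0.039, adjusted 0.0585; Spearman coefficient = 0.564, permutation p = 0.0969, adjusted 0.194) did not pass after adjustment. Krt15 (r = 0.723, permutation p = 0.0164, adjusted 0.0328; Spearman coefficient = 0.401, permutation p = 0.251, adjusted 0.377) rested on those 2 allografts, with r = 0.141 without them. Krt14 (r = −0.291, permutation p = 0.416, adjusted 0.499; Spearman coefficient = −0.224, permutation p = 0.536, adjusted 0.536) and Krt16 (r = 0.0744, permutation p = 0.839, adjusted 0.839; Spearman coefficient = 0.236, permutation p = 0.516, adjusted 0.536) showed no detectable relation with Krt5. The very close coding sequences of Krt6a and Krt6b mean that their 2 relations are not separate evidence. Krt5 and Krt6a also share an identical run of up to 140 bases, and 9.32% of the 50-base words of Krt6a occur in Krt5. The part of shared fragments in these relations was not tested.

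**Figure D4:**
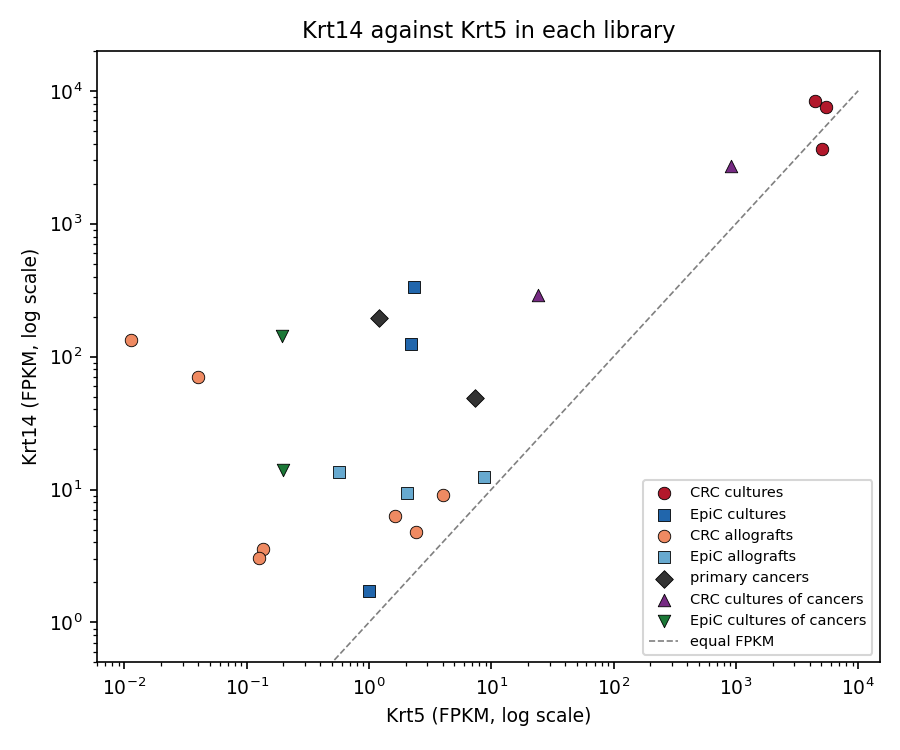
Krt14 against Krt5 (FPKM, log axes) in each of the 22 libraries, coloured by group, with the line of equal values; the 2 tables were normalised separately. CRC cultures lie near the line at the upper right, and CRC allografts 1 and 11C lie at the far left with Krt14 of 132 and 69.6 FPKM.

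Over the 16 libraries of the larger table, which share the culture contrast, the members had correlations of log2(FPKM + 1) from 0.801 (Krt14 with Krt15) to 0.991 (Krt17 with Krt6b), and Krt5 with Krt14 was at 0.843. These are descriptions with no test. Of the 12325 genes that passed the filter, the non-member genes most like Krt5 over the 16 libraries were Krtdap (r = 0.988), a keratinocyte differentiation gene, Dmkn (0.988), Bmp7 (0.984), Nccrp1 (0.983) and Grhl1 (0.982). Krtdap stood at 860 ± 343 FPKM in the CRC cultures and at 0.199 ± 0.175 FPKM in the EpiC cultures. Those most like Krt6a were Dmkn (0.992), Slc1a1 (0.990), Fam83b (0.989), Pof1b (0.985) and Dsg3 (0.984).

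The genes most like Krt14 were others: Pkp3 (r = 0.986) and Jup (0.973), which encode plakophilin and plakoglobin of the desmosome, with Pak6 (0.974), Phldb3 (0.972) and Arhgap8 (0.967). Jup stood at 163 ± 21.3 FPKM in CRC cultures and 26.0 ± 20.2 in EpiC cultures (n = 3 each), and at 7.39 ± 7.67 in CRC (n = 7) and 7.75 ± 1.51 in EpiC allografts (n = 3).

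In the primary cancers and their cultures all 7 keratins were higher in the CRC than in the EpiC culture of both cancers, a pattern that 23.0% of 12266 genes tested shared. Krt15 and Krt6b passed the filter through the CRC cultures alone in this table too, so the higher mean of these 2 in the CRC cultures followed from the filter. In the limma fit none of the 7 was called between those cultures, where 0.00815% of 12266 genes were called in either direction and 200 had an unadjusted p under 0.05, 5 of the 7 keratins among them. With 2 libraries in each group the fit has 3 residual degrees of freedom.

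Krt5 stood at 24.0 and 917 FPKM in the CRC cultures of cancers 1 and 2, and at 0.198 and 0.193 FPKM in their EpiC cultures. The CRC values differ from each other by more than a factor of 10, while the EpiC values are nearly alike. The log2 difference was 6.99 (SE 1.58, limma adjusted p = 1), and 4.39 without the CRC culture of cancer 2. Krt14 stood at 291 and 2728 FPKM in the CRC cultures and at 14.1 and 142 FPKM in the EpiC cultures (4.27, adjusted p = 1, and 2.65 without the CRC culture of cancer 2).

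Of the stress keratins, the entry of Krt6a, Krt82 and Krt85 stood at 8.96 and 277 FPKM in the CRC and 0.469 and 0.514 FPKM in the EpiC cultures of cancers 1 and 2. In the larger table Krt82 and Krt85 never passed 0.0219 and 0.0793 FPKM. Krt16 stood at 7.10 and 218 FPKM in the CRC and 2.75 and 7.90 FPKM in the EpiC cultures, and Krt17 at 16.9 and 418 FPKM against 3.20 and 1.88. Krt6b stood at 1.53 and 14.8 FPKM in the CRC cultures, and at a library listed at 0 and 0.113 FPKM in the EpiC cultures. Krt15 stood at 0.429 and 5.52 FPKM against a library listed at 0 and 0.0506.

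Against the cancers themselves, 6 of the 7 were higher in FPKM in the CRC culture in both cancers, a pattern that 22.7% of 12266 genes shared, with Krt15 the exception. None was called, where 0.889% of the genes were called in either direction. Krt5 stood at 7.30 and 1.20 FPKM in cancers 1 and 2, so that the CRC culture held 3.29 and 765 times as much (log2 difference 5.15, SE 1.58, limma adjusted p = 0.383, and 2.55 without the CRC culture of cancer 2). Krt14 stood at 48.6 and 195 FPKM in the cancers (3.18, SE 1.43, adjusted p = 0.739, and 1.57 without the CRC culture of cancer 2). Krt15 was 0.893 FPKM in cancer 1, above the 0.429 of its CRC culture, and 0.162 FPKM in cancer 2.

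Krt17 was the most abundant member in cancer 2. It stood at 12.8 FPKM in cancer 1 and 320 FPKM in cancer 2, where it exceeded Krt5 by a factor of 266.5. The CRC cultures held 1.32 and 1.31 times the Krt17 of their cancers in FPKM. These ratios are not scaled to the FPKM sum, which was 1616000 in the CRC culture of cancer 2 and 607500 in cancer 2. Among all genes, Krt17 ranked 272 in cancer 2 and 432 in its CRC culture. For cancer 1 the ranks were 5913 and 5123. The Krt6a entry stood at 2.23 and 21.1 FPKM in cancers 1 and 2, Krt16 at 1.81 and 7.34 FPKM, and Krt6b at 0.119 and 0.258 FPKM.

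In the EpiC cultures 6 of the 7 were lower than in the cancer in both cancers, as were 22.1% of 12266 genes, with Krt16 the exception. None was called, where 0.677% of the genes were called in either direction. Krt17 differed by −4.26 (SE 1.80, limma adjusted p = 0.74) and Krt5 by −1.84 on the log2 scale. Macrophage markers summed to 671 and 1062 FPKM in the cancers, 8.44 to 12.5 FPKM in the CRC and 13.8 to 36.3 FPKM in the EpiC cultures, and their part in these values was not tested.

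**Figure D5:**
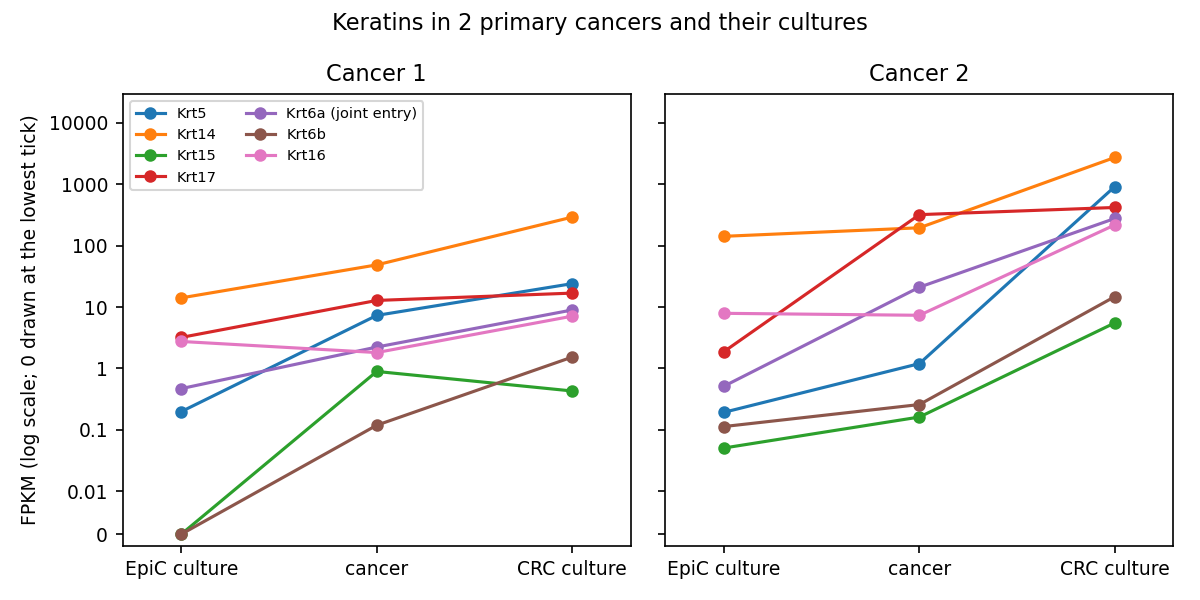
FPKM (log axis, 0 drawn at the lowest tick) of the 7 keratins in the EpiC culture, the cancer and the CRC culture of cancers 1 and 2, with 1 library at each point and Krt6a shown by its joint entry. Krt5 lies at 917 FPKM in the CRC culture of cancer 2 and 24.0 FPKM in that of cancer 1, and Krt17 reaches 320 FPKM in cancer 2 itself.

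The CRC culture of cancer 2 held the highest level of each of the 7 keratins in the smaller table, and also the FPKM sum of 1616000. As a share of the FPKM sum, the 7 keratins took 0.283% there, 0.0499% in the CRC culture of cancer 1, and 0.0108% and 0.0897% in cancers 1 and 2. In the EpiC cultures the shares were 0.00292% and 0.0233%. So within each cancer the summed share of the 7 was also highest in the CRC culture. Shares of single members are not given, and Krt17 ranked lower among all genes in the CRC culture of cancer 2 than in cancer 2. Trp63 averaged 3.46 FPKM in the CRC and 0.771 in the EpiC cultures of the cancers (log2 difference 1.47, SE 0.79, limma adjusted p = 1), and no desmosome, anchorage or transcription factor gene of the lists was called between them. Col17a1 stood between 1.27 and 21.0 FPKM in these CRC cultures and at most 0.377 FPKM in the EpiC cultures (2.59, adjusted p = 1).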

How the data were processed

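RNA came from homogenised mammary tissue (Trizol and RNeasy, poly(A) selection, TruSeq, paired-end Illumina sequencing), per the labels' protocols. The authors deposited FPKM in 2 tables. Per the submitters' processing notes the tools were FastQC, Trim Galore, TopHat and Cufflinks on mm9, with no versions; the sources used here state neither filters nor how multiply matching fragments were treated. Of the values above 0 in the smaller table, 51.5% carry more than 6 digits and 97.2% of those end in 5, a form that averaging of pairs would give. A value of 0 may be a failed estimate and is written as listed at 0. The 407 entries of the smaller table that share a symbol were summed.

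Read totals are not in the tables. Steps between low values put the worth of a fragment at 0.983 to 4.36 times that in CRC allograft 10C (largest in CRC culture 3) and at 0.527 to 1.02 times that in cancer 1, though the modal ratio held no more than 29.0% of the low genes, so depth is only roughly known and no counts were recovered.

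Libraries were grouped by title. limma 3.58.1 in R 4.3.3 (lmFit, eBayes with trend) was fitted within each table on log2(FPKM + 1) for genes that averaged 1 FPKM or more, with genotype as a covariate in the larger table except within CRC allografts by genotype. Fold changes on this scale understate low genes. Calls used a Benjamini-Hochberg adjusted p under 0.05 over all genes tested. The fit was also run on simulated data with normal scatter, and its outcome is not reported here. Changes were planted only in well expressed genes, so that run does not cover low values. Correlations used 100000 permutations. Coding and promoter sequences came from GENCODE M21 and RefSeq (GRCm38), with 2 of the 7 members in the promoter table; the entry of Krt14 starts inside its gene and is not shown.

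The members and lists were chosen with earlier results of these data known. Beside the 7 members, the genes named are up to 3 called genes of each list with the largest difference, up to 2 of a list without a call, keratins at 10 FPKM or more in a library, and the 5 genes most like Krt5, Krt14 and Krt6a. Lamb3, Itgb4, Cd151, Itga3, Col7a1, Plec, Il1b, Plaur, Krt4, Krt10, Krt71 and the contractile genes were named after their values were seen. Some items that this rule would name are not reported here.

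In the smaller table the cultures pair with cancers by title. Deviations from the group means correlated over 12266 genes at −0.0555 (cancer and CRC culture), −0.113 (cancer and EpiC culture) and 0.242 (the cultures). Of 135 pairs of libraries within a table, 0 were identical.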

Additional observations from a re-analysis of the deposited data

Results flagged for a closer look

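The change from culture to allograft differed between the media by the interaction test for 6 keratins, with limma log2 values of −11.58 for Krt5, −10.35 for Krt17, −8.97 for Krt6a, −7.85 for Krt6b, −7.17 for Krt16 and −3.35 for Krt15. Each fell in the CRC series, and none was called in the EpiC series. Krt15, Krt6b and Krt6a would not have passed the filter without the CRC cultures, so their values followed from the filter. The test also shares the CRC cultures with the comparison of culture media and is not independent of it.

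Krt16 in CRC allograft 1, at 1.89 FPKM, lay apart from the other 6 CRC allografts, its gap being 0.6 of the group's range against a critical value of 0.568. The same library held the highest Krt14 of the allografts, at 132 FPKM, and the coding sequences of these genes are 86.2% identical. The part of Krt14 fragments in this value was not tested. Of 7 keratins looked at in this way 1 was marked. Chance marks about 1 in 20 where values are normally distributed, and the gap was taken on FPKM, for which this was not tested.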

How the results depend on the processing

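No result changed sign while called. The count of called keratins stayed at 5 to 7 in the comparison of culture media over 12 alternatives, at 6 to 7 for CRC allografts against cultures over 22 and at 5 to 7 for the interaction over 21. For EpiC allografts against cultures it was 0, except 1 in a fit of the EpiC libraries alone. It was 0 under every alternative of the other 5 comparisons. With the replicate block, which pairs libraries of 1 cancer, it was 0 in all 3 comparisons of the smaller table, while the count of all genes called went from 109 to 58 (CRC culture against cancer), from 83 to 29 (EpiC culture against cancer) and from 1 to 0 (between the cultures).

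Counts over all genes moved more. Between culture media 2741 genes were called, but leaving out the Brca1het library left 159 (CRC) or 168 (EpiC), leaving out the CYP19A1 library left 565 (CRC) or 671 (EpiC), and dropping the filter left 1658. Over the alternatives the counts ran from 0 to 47 for the allograft media (1 as reported, 47 without CRC allograft 1), from 501 to 2200 for EpiC allografts against cultures (1750), from 760 to 2243 for the interaction (1506), from 0 to 26 for the Brca1 genotypes (0, 26 without CRC allograft 1), from 0 to 284 for either kind of culture against the cancers (109 and 83), and from 0 to 12 between the cultures of the cancers (1). Both counts against the cancers were 0 without the EpiC culture of cancer 1, and they were 44 and 37 without the CRC culture of cancer 2. The cause was not tested. Without 1 library of a pair of groups the lone library left is assumed to vary like the others. Values near 0.01 FPKM are at the limit of what these libraries resolve.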
